A study of Homo sapiens with 3 samples.

Results

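SREBF2, which encodes the transcription factor SREBP2, and 6 sterol-regulated genes, INSIG1, HMGCS1, IDI1, SQLE, MSMO1 and SC5D, were followed in HEK293T cells labelled as DDX24 knockdown and in their vector control. They were taken by symbol from the rows of the count table placed on chromosomes, as SREBP2 and established targets of the sterol response, which gave 7 of 67008 gene models. All 7 were among the 17713 genes that passed the filter on low counts. HEK293T, derived from human embryonic kidney, is a transformed line with SV40 large T antigen. All cells were grown in medium with fetal bovine serum and infected with lentivirus (5 particles per cell, polybrene at 8 µg/mL), and were taken 72 hours later. The control (genotype WT) received pLKO.1, and the 2 libraries of genotype DDX24 knockdown received the pLKO.1-based hairpins shDDX24-1 (hairpin 1) or shDDX24-2 (hairpin 2). There was thus 1 control library and 1 library for each hairpin, so hairpin and library cannot be told apart, and the spread in the knockdown group is the difference between the hairpins.

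SREBP2 is made as a membrane protein of the endoplasmic reticulum, bound to its escort SCAP. When membrane cholesterol is ample, INSIG proteins hold SCAP and SREBP2 in place. When it is scarce, the pair travels to the Golgi, where MBTPS1 and MBTPS2, a pair of proteases, release the transcription factor domain. That domain binds sterol regulatory elements (SREs), commonly beside sites for NF-Y (the CCAAT box) and Sp1 (the GC box), and raises the genes of cholesterol synthesis and uptake, together with INSIG1 and SREBF2 themselves.

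The libraries held 36738685 to 52198744 counts, with the deepest being the control. DDX24 was listed at 0 counts in all 3 libraries in both of its gene models, the control included, so neither the knockdown nor the library labels could be checked on the target. Of 6 marker genes set for the line, all had counts, with a summed level of 452 to 498 CPM (counts scaled to library size, here the total). Most of that sum came from VIM, at 314 to 351 CPM, while PAX2 was at 1.28 to 1.67 CPM. Fibroblast markers summed to 22.4 to 26.3 CPM, mostly from COL1A1. Hepatocyte, leukocyte and endothelial markers summed to at most 2.64 CPM in any library, and CD3E, a T cell marker, had 0 counts in each. Erythroid markers summed to 1.72 CPM (control), 0.299 CPM (hairpin 1) and 0.317 CPM (hairpin 2). Their part in any result here was not tested.

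Start-site windows of SREBF2, INSIG1, MSMO1 and SC5D are shown first because SREBP2 acts through such windows. The windows run from 250 bases before to 50 bases after a RefSeq start site (GRCh38.p14), and the RefSeq table held such windows for 6 of the genes. Where a gene had several, the one nearest to its listed start was used. Each is written 5′ to 3′ on the strand of the gene, and capitals mark the SRE core TCACNCCAC, the CCAAT box and the palindromic E-box CACGTG, each searched on both strands, so that a CCAAT box on the opposite strand reads ATTGG. SREBF2 lies at chr22:41832855-41833154 (plus strand), INSIG1 at chr7:155297628-155297927 (plus), MSMO1 at chr4:165327419-165327718 (plus) and SC5D at chr11:121292521-121292820 (plus).
SREBF2: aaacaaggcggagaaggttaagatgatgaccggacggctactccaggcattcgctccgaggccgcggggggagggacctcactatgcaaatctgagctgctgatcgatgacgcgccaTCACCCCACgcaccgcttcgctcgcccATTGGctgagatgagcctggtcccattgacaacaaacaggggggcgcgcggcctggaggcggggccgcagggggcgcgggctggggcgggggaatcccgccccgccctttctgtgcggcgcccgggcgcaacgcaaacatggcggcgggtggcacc
INSIG1: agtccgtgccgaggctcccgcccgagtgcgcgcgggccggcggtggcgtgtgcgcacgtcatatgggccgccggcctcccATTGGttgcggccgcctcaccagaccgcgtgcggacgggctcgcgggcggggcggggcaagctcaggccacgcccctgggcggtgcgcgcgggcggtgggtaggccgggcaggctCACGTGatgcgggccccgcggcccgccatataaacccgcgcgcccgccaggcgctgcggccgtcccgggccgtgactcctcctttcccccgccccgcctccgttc
MSMO1: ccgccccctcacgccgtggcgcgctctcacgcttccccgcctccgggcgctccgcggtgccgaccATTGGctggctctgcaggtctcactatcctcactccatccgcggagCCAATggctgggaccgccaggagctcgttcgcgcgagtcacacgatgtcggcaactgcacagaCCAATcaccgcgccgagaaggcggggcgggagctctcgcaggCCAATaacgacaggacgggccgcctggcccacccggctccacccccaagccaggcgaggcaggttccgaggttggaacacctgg
SC5D: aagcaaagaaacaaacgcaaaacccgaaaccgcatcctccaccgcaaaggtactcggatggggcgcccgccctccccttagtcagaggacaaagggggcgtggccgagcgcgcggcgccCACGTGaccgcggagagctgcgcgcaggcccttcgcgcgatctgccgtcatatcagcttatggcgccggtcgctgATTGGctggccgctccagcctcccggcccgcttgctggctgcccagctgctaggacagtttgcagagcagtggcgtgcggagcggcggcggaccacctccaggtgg

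The SRE core occurred in the SREBF2 window, at position -133 from the start site (chr22:41832972-41832980), and in none of the other 5 windows used. It was present in 1.13% of the 35116 RefSeq windows searched. In SREBF2 it was followed by a CCAAT box on the opposite strand at position -106. A CCAAT box was found in all 6 windows, against 34.6% of all windows, and MSMO1 held 4 of them. The GC box GGGCGG, not marked by capitals, was also found in all 6 windows, against 45.0% of all. CACGTG was found in INSIG1, at position -55, and in SC5D, at position -131, against 7.26% of all windows. A match of letters is a description of the window and not a measured site.

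Levels of the 7 genes were first compared within the libraries, as TMM-scaled CPM per kb of exon in GENCODE release 29 (TMM is the scaling factor of edgeR that is set by the bulk of genes). The order is approximate, since the annotation used for counting is not known here and may hold other exons. INSIG1 stood highest, at 66.3 (control), 81.9 (hairpin 1) and 55.0 (hairpin 2). SQLE followed at 52.1, 47.4 and 58.6, and its range overlapped that of INSIG1. HMGCS1, at 35.2, 37.2 and 41.8, lay below SQLE and above IDI1, at 32.8, 31.4 and 30.7, with no overlap on either side. MSMO1, at 27.1, 26.3 and 32.0, overlapped IDI1. SC5D, at 25.7, 22.1 and 21.5, and SREBF2, at 21.1, 21.2 and 23.4, overlapped each other and lay below MSMO1. INSIG1, whose product retains SREBP2 in the endoplasmic reticulum, and SQLE, a rate-limiting oxygenase of the pathway, were thus the most abundant per length in each library, and hairpin 2 was the library in which SQLE stood above INSIG1.

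None of the 7 genes differed between the knockdown group and the control in edgeR's quasi-likelihood test, fitted across all genes (Benjamini-Hochberg adjusted p = 0.999 for each). The smallest unadjusted p of the 7 was 0.101, for SC5D. Over all 17713 genes this test called 2 lower (0.0113%) and 0 higher (0%), and 688 genes had an unadjusted p below 0.05. The count of called genes among the 7 was likewise 0 in DESeq2 and in limma-voom. With 1 residual degree of freedom between the hairpins the test could miss differences of the size seen here, so the levels in each library are given gene by gene. Bulk RNA cannot tell fewer cells of a kind from less RNA per cell.

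**Figure D1:**
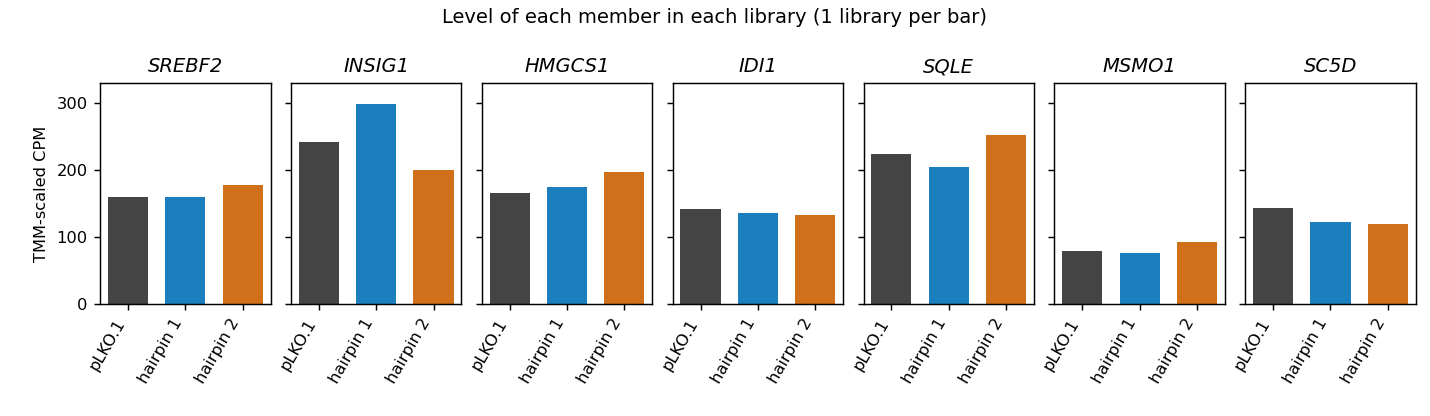
TMM-scaled CPM (vertical axis, from 0) of the 7 genes in the pLKO.1 control and the hairpin 1 and hairpin 2 libraries, with 1 library for each bar. INSIG1 was highest with hairpin 1 (299 CPM) and lowest with hairpin 2 (201 CPM), whereas SQLE had the opposite order of the hairpins (204 and 252 CPM).

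SREBF2 (ENSG00000198911.12, GRCh38 chromosome 22, 41833079 to 41907307, plus strand) had 8411 (control), 5921 (hairpin 1) and 6573 (hairpin 2) counts. Scaled, this was 159 CPM in the control, 160 CPM with hairpin 1 and 177 CPM with hairpin 2. Hairpin 1 did not differ from the control beyond counting error, and hairpin 2 was higher. Relative to the control, the log2 ratio of hairpin 1 was 0.0081 (exact 95% interval, -0.040 to 0.056) and that of hairpin 2 was 0.15 (0.11 to 0.20), where the intervals, here and for the other genes, cover counting error only. Across the group the knockdown mean was 169 ± 12 CPM (SD, n = 2) and the log2 fold change was 0.083 ± 0.14 (SE). MIR33A, a microRNA gene inside SREBF2 whose product represses the cholesterol exporter ABCA1, had 0 counts in each library of this poly(A)-selected RNA. The antisense model SREBF2-AS1 had 7, 6 and 4 counts, too few to alter the SREBF2 values.

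INSIG1 (ENSG00000186480.13, chromosome 7, 155297776 to 155310235, plus strand), the sterol-dependent anchor of SCAP and itself a target of SREBP2, had 12786 (control), 11055 (hairpin 1) and 7444 (hairpin 2) counts. It was at 242 CPM in the control, 299 CPM with hairpin 1 and 201 CPM with hairpin 2. The control lay between the hairpins, which departed from it to opposite sides by similar amounts. The log2 ratios were 0.30 with hairpin 1 (0.27 to 0.34) and -0.27 with hairpin 2 (-0.31 to -0.23). The group log2 fold change of 0.045 ± 0.23 (SE) averages these opposite values, and the mean of 250 ± 69.6 CPM (SD, n = 2) carries the widest spread of the 7 genes. It would be 0.30 from hairpin 1 alone and -0.27 from hairpin 2 alone.

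The mevalonate steps were represented by 2 of the 7 genes. HMGCS1 (ENSG00000112972.15, chromosome 5, 43287470 to 43313512, minus strand), the synthase that makes HMG-CoA, was at 165 CPM in the control, 175 CPM with hairpin 1 and 197 CPM with hairpin 2, from 8738, 6466 and 7298 counts. It was above the control with both hairpins, by log2 ratios of 0.080 (0.034 to 0.13) and 0.25 (0.20 to 0.29). The group log2 fold change was 0.17 ± 0.14 (SE), the highest of the 7 genes. IDI1 (ENSG00000067064.11, chromosome 10, 1039152 to 1049170, minus strand), the isomerase that interconverts the isoprene units, was at 142 CPM in the control, 136 CPM with hairpin 1 and 133 CPM with hairpin 2, from 7519, 5040 and 4952 counts. It was slightly below the control with both, by log2 ratios of -0.063 (-0.11 to -0.011) and -0.093 (-0.15 to -0.041), and its group log2 fold change was -0.078 ± 0.13 (SE). The opposite-strand model IDI2-AS1, which overlaps IDI1, had 10 to 23 counts in a library.

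The later, sterol-forming steps were represented by SQLE, MSMO1 and SC5D. SQLE (ENSG00000104549.12, chromosome 8, 124998497 to 125022283, plus strand), the squalene epoxidase, was at 224 CPM in the control, 204 CPM with hairpin 1 and 252 CPM with hairpin 2, from 11838, 7535 and 9363 counts. It lay below the control with hairpin 1 (log2 ratio -0.14, -0.18 to -0.095) and above it with hairpin 2 (0.17, 0.13 to 0.21), the reverse of INSIG1. The group log2 fold change of SQLE was 0.025 ± 0.16 (SE), and it was -0.0032 with scaling by library totals, so the group value has no settled sign.

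MSMO1 (ENSG00000052802.13, chromosome 4, 165327667 to 165343164, plus strand) encodes an oxygenase that acts in removing methyl groups from the sterol ring. The gene was at 78.4 CPM in the control, 76.0 CPM with hairpin 1 and 92.6 CPM with hairpin 2, from 4142, 2810 and 3435 counts. Hairpin 1 was within counting error of the control (log2 ratio -0.045, -0.11 to 0.024) and hairpin 2 was higher (0.24, 0.17 to 0.30). Its group log2 fold change was 0.10 ± 0.16 (SE). SC5D (ENSG00000109929.10, chromosome 11, 121292681 to 121313410, plus strand), the desaturase that makes a ring double bond late in the pathway, was at 143 CPM in the control, 123 CPM with hairpin 1 and 120 CPM with hairpin 2, from 7547, 4539 and 4436 counts. It was below the control with both hairpins by similar amounts, -0.22 (-0.27 to -0.17) and -0.26 (-0.31 to -0.20) on the log2 scale. Its group log2 fold change of -0.24 ± 0.13 (SE, unadjusted p = 0.101 in edgeR's test across all genes) was the lowest of the 7 genes and the largest in size.

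**Figure D2:**
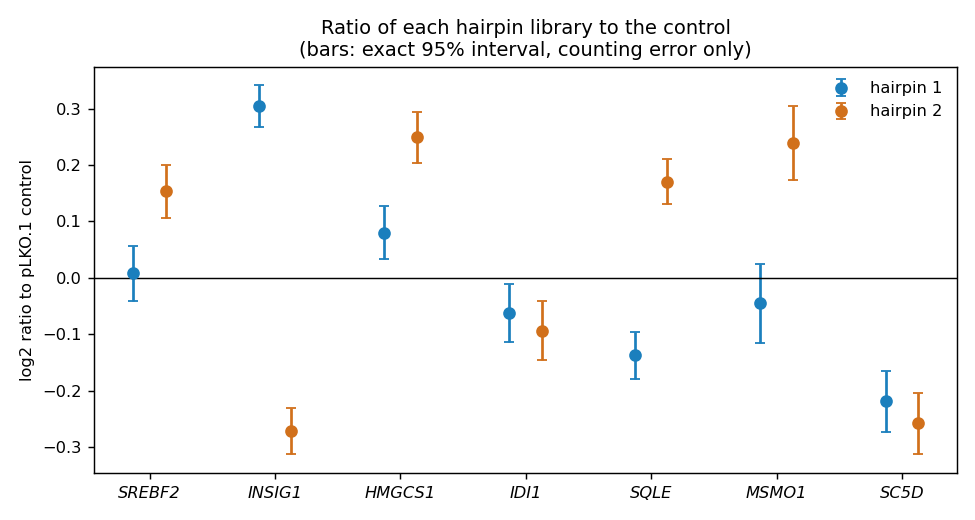
Log2 ratio of hairpin 1 and of hairpin 2 to the pLKO.1 control (vertical axis) for the 7 genes, with exact 95% intervals that cover counting error only; the line at 0 marks the control. IDI1 and SC5D lie below 0 with both hairpins, SREBF2 and HMGCS1 above 0 with both, and INSIG1 (0.30 and -0.27), SQLE and MSMO1 to either side.

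Of the 7 genes, 2 were lower than the control with both hairpins (IDI1 and SC5D), 2 were higher with both (SREBF2 and HMGCS1) and 3 were split. Among all genes tested 32.0% were lower with both and 31.9% were higher with both, so both counts were near the background. The median log2 ratio of the 7 was -0.045 with hairpin 1 and 0.15 with hairpin 2, against medians of 0.0025 and -0.0040 over all genes tested. The signs of the 7 genes with each hairpin were the same with TMM, DESeq2 size factors and library totals. For SREBF2 with hairpin 1 that sign carries no weight, since its ratio was 0.00020 with library totals.

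For INSIG1, SQLE, MSMO1 and SREBF2 the log2 difference between the hairpins was larger than that between group and control. For HMGCS1 they were nearly equal, at 0.169 and 0.167. INSIG1 was lower with hairpin 2 than with hairpin 1 by a log2 ratio of -0.58 (exact 95% interval, -0.62 to -0.53). SQLE, at 0.31 (0.26 to 0.35), MSMO1, at 0.28 (0.21 to 0.36), HMGCS1, at 0.17 (0.12 to 0.22), and SREBF2, at 0.15 (0.094 to 0.20), were higher with hairpin 2. IDI1, at -0.031 (-0.088 to 0.026), and SC5D, at -0.039 (-0.099 to 0.021), did not differ between the hairpin libraries beyond counting error. With 1 library for each hairpin there is no replicate check of these differences.

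The interval of the hairpin difference left out 0 for 5 of the 7 genes, against 42.6% of all genes tested, most of which had fewer counts and so wider intervals. Among the 10995 genes that reached 5 CPM in any library, the quartiles of these log2 differences were -0.13 and 0.14. INSIG1 ranked 309 from the lowest, and SQLE and MSMO1 ranked 637 and 773 from the highest. HMGCS1 and SREBF2 lay just above the upper quartile, at ranks 2212 and 2677 from the highest.

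The wider pathway was read in order of its steps. All 19 enzyme genes on the lists, 7 of the mevalonate steps and 12 from squalene onward, passed the low-count filter, and 0 were called in edgeR's test or had an unadjusted p under 0.05. Their median log2 ratio was -0.057 with hairpin 1 and 0.081 with hairpin 2. Of the 19, 5 were lower with both hairpins and 5 higher with both, against 32.0% lower and 31.9% higher among all genes tested. Such counts, here and for the lists below, go by sign alone, whether or not an interval includes 0. They were not tested against the shares over all genes. Group log2 fold changes of the 19 ran from -0.24 (SC5D) to 0.17 (HMGCS1), so these 2 genes marked the ends of that range. The 7 mevalonate genes had 1 lower (IDI1) and 4 higher with both hairpins, and the 12 later genes had 4 lower (LSS, NSDHL, HSD17B7 and SC5D), 1 higher (FDFT1, in its chromosome model) and 7 split. With library totals, 6 of the later genes were lower with both, as were 6471 of all 17713 genes.

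MVD, the mevalonate diphosphate decarboxylase, was at 25.3 against 28.7 and 27.6 CPM, and FDPS, the farnesyl diphosphate synthase, at 155 against 173 and 162 CPM. PMVK, the phosphomevalonate kinase, was at 21.9 against 22.5 and 23.6 CPM. MVD, FDPS and PMVK were above the control with both hairpins. The intervals of PMVK included 0 with hairpin 1 (-0.090 to 0.17) and hairpin 2 (-0.020 to 0.24), while those of MVD and FDPS did not.

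Among later steps, LSS, which closes the sterol rings, was at 22.5 CPM against 19.3 and 21.2 CPM with the hairpins. NSDHL and HSD17B7 act with MSMO1 in removing methyl groups. NSDHL was at 65.1 against 59.1 and 61.4 CPM, and HSD17B7 at 17.9 against 15.9 and 17.4 CPM. Both were below the control with both hairpins, while MSMO1 was split. With hairpin 2 the intervals of HSD17B7 (-0.19 to 0.10) and LSS (-0.22 to 0.040) included 0, while that of NSDHL did not. FDFT1, the squalene synthase, had 120 counts in the control in its chromosome model and 1200 in a second model on an alternate scaffold, so its values are uncertain. The chromosome model had log2 ratios of 0.13 (-0.28 to 0.54) with hairpin 1 and 0.17 (-0.23 to 0.57) with hairpin 2, and the scaffold model had -0.029 (-0.16 to 0.10) and -0.061 (-0.19 to 0.068). All 4 intervals include 0, and the models differ in sign and in the order of the hairpins. With the scaffold model in place of the other, 5 of the 12 later genes would be lower and 0 higher with both hairpins. None of these genes passed the edgeR test.

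**Figure D3:**
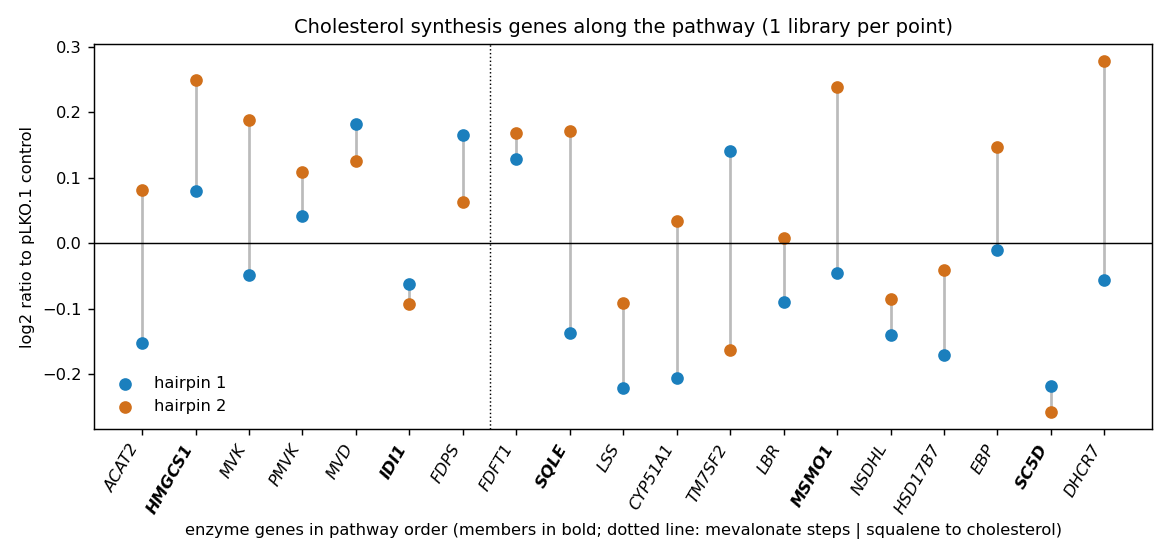
Log2 ratio to the pLKO.1 control (vertical axis) for 19 enzyme genes in pathway order, with 1 point for the hairpin 1 library and 1 for hairpin 2, joined by a grey line; FDFT1 is the chromosome model with few counts. The hairpin 2 point lies above the hairpin 1 point for 14 of the 19 genes, with long lines at SQLE, MSMO1 and DHCR7 and short lines at IDI1 and SC5D.

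The order of the hairpins seen in HMGCS1, SQLE and MSMO1 was frequent along the pathway. Of the other 14 enzyme genes 11 were higher with hairpin 2 than with hairpin 1, and of the 7 genes 4 were. Over all genes tested that share was 48.9%, and among genes at 5 CPM or more it was 54.8%. Across all sterol and lipid lists without the 7 genes, these 14 included, the order held for 43 of 56. It was thus not particular to this pathway. The interval of the hairpin difference included 0 for PMVK, FDFT1, LSS, NSDHL and HSD17B7 among the 11, and for MVD among those that were lower. The count among the 14 was again 11 with library totals and with DESeq2 size factors, and 10 with the scaffold model of FDFT1. Over all genes tested the share was 43.5% with library totals and 49.4% with DESeq2 size factors. DHCR7, the reductase of a last step of cholesterol synthesis, had a log2 ratio of hairpin 2 to hairpin 1 of 0.33 (0.28 to 0.39), close to those of SQLE and MSMO1. DHCR7 was named for this pattern after its values were seen.

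Genes that restrain the pathway stood on the other side, with INSIG1. INSIG2, the second anchor of SCAP, was at 15.5 CPM in the control, 16.5 CPM with hairpin 1 and 10.3 CPM with hairpin 2, a log2 ratio between the hairpins of -0.68 (-0.87 to -0.50). RNF145, a ubiquitin ligase of the endoplasmic reticulum that acts on SCAP, was at 92.9, 101 and 53.4 CPM, a ratio of -0.92 (-0.996 to -0.84). For both, the control lay near hairpin 1 and hairpin 2 was lower, whereas the control value of INSIG1 was midway. RNF139, a further ligase of this system, did not follow INSIG1, with a ratio of 0.10 (-0.0051 to 0.20). SCAP itself was at 148, 156 and 168 CPM, and the protease gene MBTPS1 at 193, 188 and 195 CPM. INSIG2, RNF145 and MBTPS1 were named after their values were seen. Of the 11 genes of the SREBP machinery 8 were higher with hairpin 2 than with hairpin 1, against 48.9% of all genes tested. The share was 54.8% among genes at 5 CPM or more. INSIG1, INSIG2 and RNF145 were the 3 of the machinery that were lower.

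**Figure D4:**
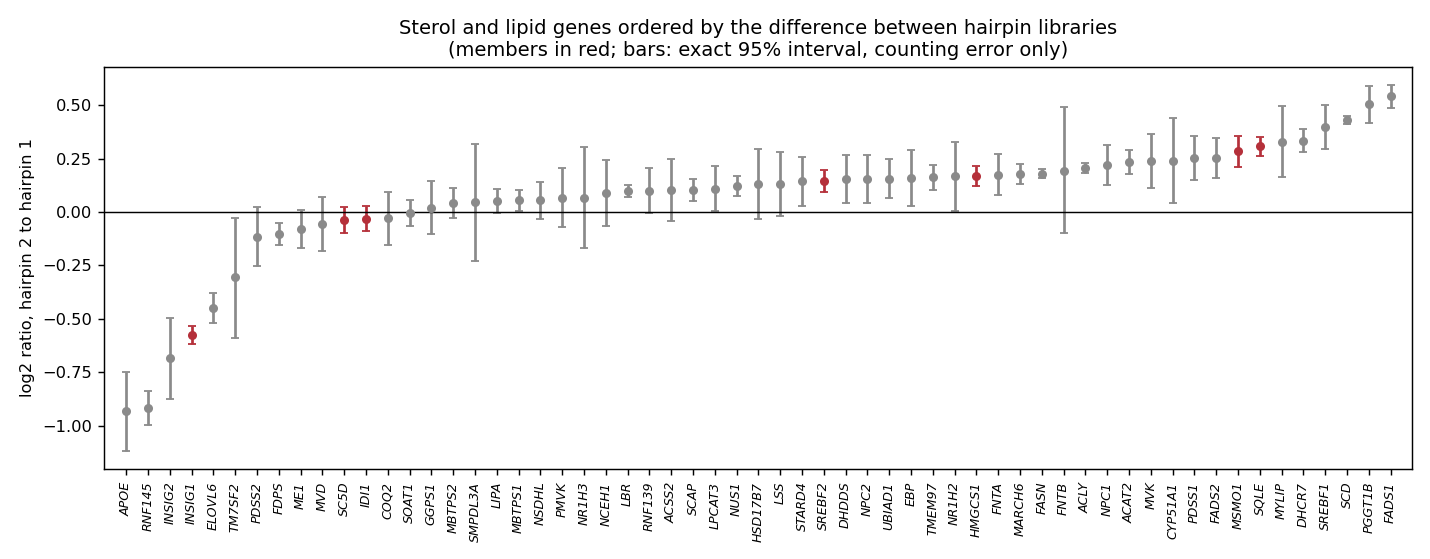
Log2 ratio of hairpin 2 to hairpin 1 (vertical axis) for 59 sterol and lipid genes that reached 5 CPM in any library, in rising order, with exact 95% intervals that cover counting error only. INSIG1 (-0.58) sits among the lowest with APOE, RNF145, INSIG2 and ELOVL6, IDI1 and SC5D lie near 0, and SQLE and MSMO1 lie in the upper part beside DHCR7.

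Neighbouring lipid pathways were compared for the same measures. Of 9 genes of fatty acid synthesis, governed mainly by SREBP1, 7 were higher with hairpin 2 than with hairpin 1. That order held for 48.9% of all genes tested and 54.8% of genes at 5 CPM or more. The median log2 difference of the 9 was 0.18, close to that of HMGCS1. That median is the value of the chromosome model of ACACA, which had 99, 71 and 81 counts (interval, -0.29 to 0.67). A second ACACA model, on an alternate scaffold, had 208, 147 and 175 counts and a difference of 0.24 (-0.079 to 0.57). SCD, the stearoyl-CoA desaturase, was at 979 CPM (control), 953 CPM (hairpin 1) and 1284 CPM (hairpin 2), and SREBF1, which encodes SREBP1, at 39.6, 37.1 and 48.9 CPM. FASN, the fatty acid synthase, was above the control with both hairpins, at 743 against 869 and 984 CPM, as HMGCS1 was. ME1, malic enzyme, was below it with both, at 67.6 against 55.6 and 52.6 CPM, as SC5D was. ME1 was the 1 gene of all these lists with an unadjusted p under 0.05 in edgeR's test across all genes, and its adjusted p was 0.999.

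Of 4 uptake and trafficking genes 2 were higher with both hairpins, TMEM97 and NPC2, and 0 were lower. Over all genes tested 31.9% were higher with both and 32.0% lower. The hairpin 1 intervals of TMEM97 and NPC2 included 0. With DESeq2 size factors 1 was higher with both, and with library totals 1 was higher and 2 were lower. Of 8 genes of LXR signalling and sterol efflux, which acts when sterols are ample, 3 were lower (ABCA1, ABCG1 and NR1H3) and 2 higher (NR1H2 and LPCAT3) with both. These counts were near the shares over all genes. The intervals of ABCG1 and NR1H3 included 0 with both hairpins, and those of ABCA1 and LPCAT3 included 0 with hairpin 1. APOE, a lipoprotein component in that list, was at 18.7, 19.3 and 10.1 CPM in the control, hairpin 1 and hairpin 2, an order like that of INSIG2. APOE, SCD, SREBF1, ACACA, ABCA1, ABCG1 and FNTA were named after their values were seen.

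Of the genes of branches that draw on isoprenoids 9 of 10 passed the filter, with 3 lower (PDSS2, COQ2 and FNTA) and 2 higher (DHDDS and GGPS1) with both hairpins. Among all genes tested 32.0% were lower and 31.9% higher with both. The intervals of GGPS1 included 0 with both hairpins, and that of FNTA with hairpin 2. COQ2, which joins the isoprenoid tail to the ubiquinone ring, was at 35.4 against 29.1 and 28.5 CPM, a log2 fold change of -0.30 ± 0.15 (SE), similar to that of SC5D. Of 4 genes of ester storage and release 3 passed, with 0 lower and 1 higher with both. That gene was NCEH1, a cholesteryl ester hydrolase, at 15.3 against 17.9 and 19.1 CPM. None of the genes of these lists was called in edgeR's test.

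The genes whose pattern over the 3 libraries was most like that of the 7 were sought by distance to their median pair of log2 ratios, -0.045 with hairpin 1 and 0.15 with hairpin 2. The 5 nearest of 10988 other genes at 5 CPM or more were CRCP, SLC10A7, PRMT1, GRN and YBX1, at distances of 0.0014 to 0.0045. As 358 genes lay within 0.05 of that pair, a likeness over 3 libraries singles out few genes.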

How the data were processed

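Poly(A)-selected RNA of HEK293T cells was sequenced as paired-end reads. The authors deposited raw read counts for each gene model. The submitters' processing notes name STAR 2.7.3a, DESeq2 1.26 and the build GRCh38. How reads were counted, with which strand setting and on which annotation, is not given in the sources used here. Reads of overlapping genes may therefore be mixed where the strands differ.

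Genes with low counts were removed by filterByExpr (minimum count 10), and libraries were scaled by TMM. Groups were compared with the two-sided quasi-likelihood test of edgeR 4.0.16 (non-legacy fit, R 4.3.3), with Benjamini-Hochberg adjustment over all 17713 genes at 0.05. The procedure was tested on simulated data. The changes simulated were larger than any group log2 fold change given here, so that check does not cover changes of the size seen. The test compared the 2 hairpin libraries with the 1 control and has 1 residual degree of freedom, so the control is assumed to vary like the hairpins. No label states separate cultures, and p-values then reflect only how these libraries vary, which may be technical. The SE was computed as log2 fold change over the root of the F statistic. A prior count of 2 entered the log2 ratios of single libraries. Intervals of these ratios (95%, exact Clopper-Pearson) cover counting error only.

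The 7 genes and the gene lists were chosen with earlier results of these data known. A few sterol genes were taken out of the lists and their counts after results were known, and are not reported here. Genes named beside the 7 were up to 4 in each list with the largest smaller absolute log2 ratio of both hairpins, of the same sign, at 5 CPM or more, and others marked as named after their values were seen. Alternatives were DESeq2 size factors, library totals, no low-count filter, a filter at 1 CPM, DESeq2 1.42.0, limma-voom (limma 3.58.1), the legacy fit, an adjusted p of 0.1 and leaving out each hairpin. Start-site windows came from RefSeq (GRCh38.p14), matched by symbol, and exon lengths from GENCODE 29, matched by gene identifier without version.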

Additional observations from a re-analysis of the deposited data

How the results depend on the processing

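None of the 7 genes was called under the main test or any of the alternatives that give a test, and the count at an unadjusted p under 0.05 was 0 in each of these fits. Over all genes the main test called 2 lower; this was 0 with DESeq2 size factors, 7 with library totals, 0 without a low-count filter, 6 with a filter at 1 CPM, 1 with limma-voom and 1 with the legacy fit. The SQLE log2 fold change turned from 0.025 to -0.0032 with library totals. Leaving out each hairpin in turn left 1 library against 1, a value with no test. It gave -0.27 to 0.30 for INSIG1, -0.14 to 0.17 for SQLE and -0.045 to 0.24 for MSMO1, so their group values take their sign from 1 hairpin; SREBF2 (0.0081 to 0.15), HMGCS1 (0.080 to 0.25), IDI1 and SC5D kept their sign, and the median of the 7 ran from -0.045 to 0.15. List medians without each hairpin were 0.041 to 0.11 for mevalonate steps, -0.11 to 0.021 for later steps, -0.039 to 0.16 for fatty acid synthesis, -0.12 to 0.11 for isoprenoid branches, -0.059 to 0.093 for uptake and trafficking, -0.068 to -0.022 for LXR signalling and efflux, 0.024 to 0.028 for the SREBP machinery and 0.0021 to 0.025 for ester storage. The SREBP machinery median, 0.045 in the main fit, was 0.0226 with library totals, 0.0381 without a filter, 0.039 with the 1 CPM filter and 0.0167 with limma-voom. With library totals the ester median was -0.0265, and those of uptake and of isoprenoid branches turned from 0.018 to -0.0093 and -0.010. Under the alternatives 13 values took the opposite sign to the main ones, 4 of them fold changes of the 7 genes and 9 of them list medians. The cause of these shifts was not tested. No paired analysis was possible because the control group has 1 library and shares no second replicate number with the knockdown group. Depth limits little for the 7 genes, whose lowest count was 2810; what limits them is the single library per hairpin and control.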
